A study of Mus musculus with 8 samples.

Results

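The wide H3K27ac domains of the control cells were the peaks of the control list that lay on chr1 to chr19 or chrX and measured 2000 bp or more from start to end. Of 23519 control peaks on these chromosomes, 977 met that width. They were 4.15% of the peaks and held 9.71% of the bases called, 2293338 of 23613178. Another 4 peaks of that width, on other chromosomes or unplaced sequence, were not counted. The members were chosen by their measured width in the control list, so their widths, fold enrichments and q-values in the control list are given as descriptions with no test. What the list from treated cells held at each domain comes from a separate library.

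The study compared cultured mouse cells of C57BL/6 background, labelled female germline stem cells, after 3 h with or without C28, which the sources used here name only by that code. Chromatin immunoprecipitation sequencing of H3K27ac was made from 1 library of cells labelled as control group and 1 library of treated cells, and RNA sequencing from 3 DMSO and 3 C28 libraries. With 1 library per condition there was no replicate spread for H3K27ac, so no test between conditions was made. A difference between the lists is a difference between these libraries, in which treatment, culture, immunoprecipitation and read depth cannot be told apart. For the H3K27ac libraries the sources used here give no read depth.

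The RNA libraries, of 16930212 to 19197376 reads, allowed a check of the cells' label. Of 16 germline stem cell markers 8 averaged at least 10 normalized counts over the 6 libraries and 6 had fewer than 10 reads in all. The RNA helicase Ddx4, which defines germ cells, had a mean of 0.638 ± 1.10 normalized counts in the DMSO libraries and of 0.700 ± 0.607 in the C28 libraries (SD, n = 3 per group), and Dazl, Dppa3, Pou5f1 and Nanos3 had 1 read or none in all 6 libraries. Of 20 transcription factors of blood cells 19 averaged at least 10. Gata2, one of them, had 25072 ± 977 and 22414 ± 575. Kit, a receptor that germ cells share with blood precursors, had 22046 ± 1757 and 19928 ± 3115. Other members of the germline list were present, with means over the 6 libraries of 1613 for Etv5, 526 for Tex14, 201 for Ifitm3, 85.0 for Piwil2, 39.3 for Uchl1, 32.7 for Dnd1 and 27.1 for Zbtb16. Of 15 mast cell markers 9 averaged at least 10, as did 8 of 10 fibroblast markers. So did 6 of 10 markers of other leukocytes, 3 of 9 ovarian somatic, 1 of 6 endothelial and 0 of 8 oocyte markers. Cyp11a1, on the ovarian somatic list, had a mean of 6820 over the 6 libraries. The share of all genes that averaged at least 10 was not worked out. These counts therefore do not rank the lists against the whole table. The germline list was thus mixed, with Ddx4, Dazl, Dppa3, Pou5f1 and Nanos3 at or near 0, and markers of other cell types were present as well. The domains are called domains of the control cells here, with no cell type attached.

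H3K27ac is acetylation of lysine 27 on the tail of histone H3. The acetyltransferases p300 and CBP place it, histone deacetylases remove it, and bromodomain proteins bind acetylated histones. It marks active promoters and enhancers, where acetylated nucleosomes often flank a stretch of open DNA. Most peaks of the mark are short. Wide stretches of it are known at genes that are strongly transcribed in a given cell type and at clustered enhancers, although a peak caller that favours narrow peaks breaks long stretches into pieces.

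Positions are those of mouse build mm9, the build named in the submitters' processing notes. On 10 of the 20 chromosomes peaks lay beyond the last gene of the GRCm38 gene table, among them 203 control peaks, which makes that build unlikely. Chromosome lengths were not compared, so that count alone does not exclude it. A gene annotation of mm9 was not used here, and each domain is therefore named by its position, with no gene, exon, intron or promoter assigned.

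The domains were crowded close to the minimum width. Their median width was 2238 bp, with the middle 50% between 2093 and 2499 bp. At 2500 bp or more there were 244, at 3000 bp or more 48 and at 3500 bp or more 8. The widest, chr1:155260418-155264345, measured 3928 bp, and no control peak on any chromosome was wider. Over all control peaks the median was 932 bp. The treated list was narrower throughout, with a median of 801 bp over 21713 peaks on the same chromosomes and 369 peaks of 2000 bp or more. The lists diverged further as the width rose. There were 1.87 control peaks for each treated peak at 1500 bp or more, 2.65 at 2000 bp or more, 3.87 at 2500 bp or more and 6 at 3000 bp or more.

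**Figure D1:**
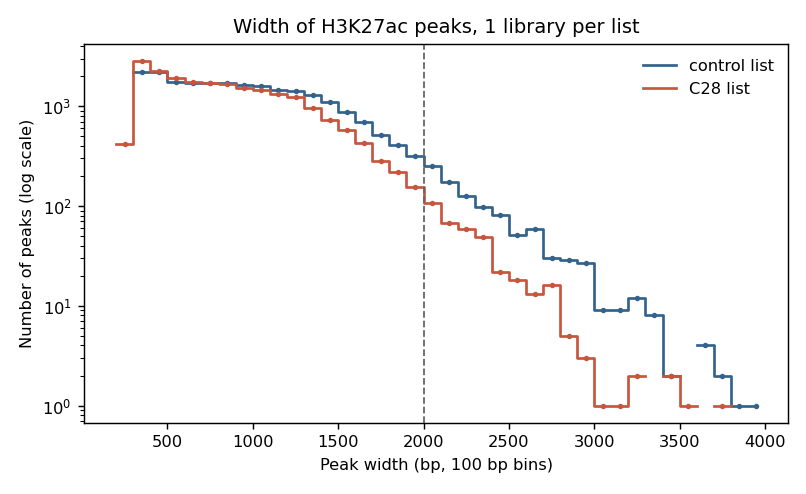
Number of H3K27ac peaks (log scale) by peak width in bp, in bins of 100 bp, for the control list (blue) and the C28 list (red), 1 library each; the dashed line marks 2000 bp. The lines run close together for narrow peaks and part to the right, where 977 control peaks and 369 C28 peaks lie beyond the dashed line.

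Wide domains were not the most enriched peaks of the control list. The authors' fold enrichment is a ratio at the summit, called height here. The sources used here do not describe the background it was taken over. It had a median of 4.93 over the 977 domains and ranged from 1.94 to 10.6. Among narrower control peaks the median first rose with width, from 4.07 under 500 bp to 7.48 at 1000 to under 1500 bp, and then declined to 6.55 at 1500 to under 2000 bp. It was 5.27 at 2000 to under 2500 bp, 4.34 at 2500 to under 3000 bp and 3.95 at 3000 bp or more. The widest domains were thus broad and low in height. Within the 977 domains, width and fold enrichment had a rank correlation (Spearman) of -0.35, whereas over all 23519 control peaks it was 0.35. These correlations are across regions of 1 library, which are not independent replicates.

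The q-values did not follow height across widths. The −log10 q of the domains, the peak caller's measure of significance, had a median of 43.4 and ranged from 6.15 to 244. For control peaks under 2000 bp the median was 17.7. It changed little with width among the domains, at 43.4, 41.9 and 45.3 for 2000 to under 2500, 2500 to under 3000 and 3000 bp or more. No domain was near the lower limit of the list, where the smallest −log10 q was 2.03.

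The 10 domains of highest fold enrichment were all among the narrower ones, at 2036 to 2147 bp. The highest was chr5:24082428-24084508, with a fold enrichment of 10.6 and a −log10 q of 138. It was followed by chr18:61714251-61716324 at 10.2 and chr8:11634708-11636820, also at 10.2. Of these 10, the treated list held 2 or more peaks at 2 and a single peak at 8. The treated fold enrichment was lower than the control one at 7 of the 10 and higher at 3. The largest drop was at chr8:11634708-11636820, from 10.2 to 5.94, although a treated peak covered 92.1% of that domain. At chr2:179905579-179907648 it went the other way, from 9.56 to 12.6.

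Summits of wide domains lay off centre more often than those of narrower peaks. In 297 of 977 domains (30.4%) the summit was in the outer 25% of the width at either end, against 22.7% of control peaks of 1500 to under 2000 bp and 19.4% of those of 1000 to under 1500 bp. The median distance from summit to centre was 382 bp, or 16.6% of the width. The longer arm, from the summit to the farther end, had a median of 1548 bp and the shorter one 766 bp among domains with a treated peak.

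Domains were spread over all 20 chromosomes. Their share of a chromosome's control peaks ran from 2.66% on chr12 (24 of 901, exact 95% binomial interval 1.71% to 3.94%) to 4.94% on chr11 (92 of 1864, 3.997% to 6.02%), the lowest and highest of the 20. On chrX 19 of 543 peaks (3.50%) were wide. Close neighbours were fewer around wide domains than around narrow peaks, but the typical distance was no longer. Of the domains 163 (16.7%) had another control peak within 5000 bp, against 25.1% of control peaks under 2000 bp, and 45 (4.61%) had one within 1000 bp, against 12.1%. Only 5 pairs of neighbouring domains were within 5000 bp of each other. Control peaks of 1500 to under 2000 bp had 15.1% and 5.01%. The median gap to the nearest peak was 11907 bp for the domains, 12478.5 bp for control peaks under 2000 bp and 13911 bp for those of 1500 to under 2000 bp. Width and spacing come from the same list, so these shares are not independent of the width rule.

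Nearly all of these domains were also marked in the treated cells. The treated list held at least 1 overlapping peak, by 1 bp or more, at 970 of 977 domains (99.3%, exact 95% binomial interval 98.5% to 99.7%, counting error only). Only 7 domains had no treated peak, whereas 24.2% of all control peaks had none. That share fell steadily with control width, from 59.3% under 500 bp to 8.22% at 1000 to under 1500 bp and 3.55% at 1500 to under 2000 bp, so the domains stood at the end of a gradient over the whole list. At 930 domains (95.2%) the control summit itself lay inside a treated peak, against 71.6% over all control peaks. At 846 domains (86.6%) at least 50% of the domain was covered, against 68.1% over all control peaks. Control peaks of 1500 to under 2000 bp were close to the domains, at 92.7% for the summit and 85.7% for this coverage.

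What the treated list held was usually shorter. Treated peaks covered 72.9% of the bases of the domains, 1671843 of 2293338, against 66.2% over all control peaks. The share was 74.5% for control peaks of 1500 to under 2000 bp and 72.5% for those of 1000 to under 1500 bp. By this measure the domains did not lose more than peaks of nearby width. Where a treated peak was present at a domain, the widest had a median of 1719.5 bp and ranged from 303 to 3704 bp. It was narrower than the domain at 896 of 970 (92.4%), against 72.0% over all control peaks with an overlap, and the median ratio of treated to control width was 0.744. It was wider than the domain at 74 (7.57% of 977, against 21.1% over all control peaks). At 221 domains (22.6%) it was under 50% of the domain's width or absent, against 31.2% over all control peaks, most of which were narrow peaks with no overlap at all.

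**Figure D2:**
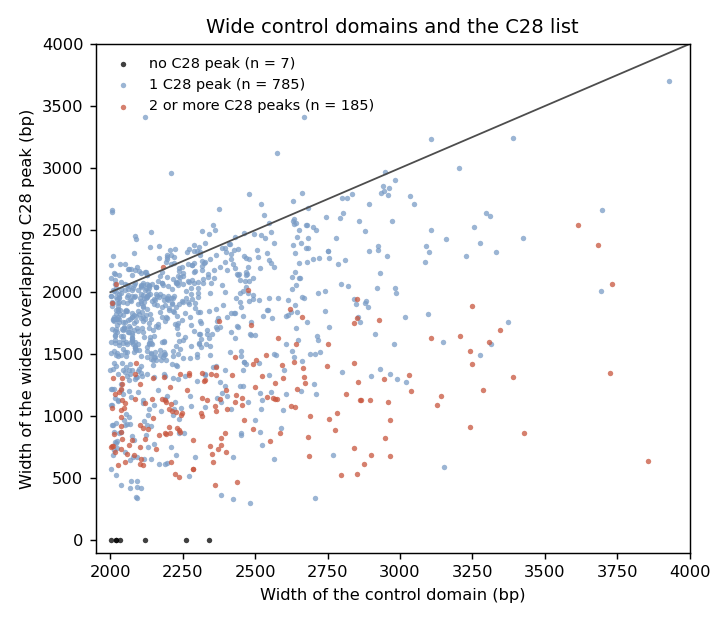
Width of each of the 977 wide control domains (x axis, bp) against the width of the widest C28 peak that overlapped it (y axis, bp), with 0 for none; colours give the number of overlapping C28 peaks and the line marks equal width. Most points lie below the line, the 185 domains with 2 or more C28 peaks lie mostly lower than those with 1, and 74 points lie above it.

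Sorting the domains by what the treated list held gave 4 outcomes. At 279 domains (28.6%, exact 95% binomial interval 25.7% to 31.5%) the widest treated peak was itself 2000 bp or wider, against 1.71% over all control peaks. At 512 (52.4%) there was 1 treated peak of less than 2000 bp, with a median of 1607 bp. At 179 (18.3%) there were several treated peaks, none as wide as 2000 bp, the widest having a median of 1104 bp. The remaining 7 had none. Counting also 6 of the first 279, the treated list held 2 or more peaks at 185 domains (18.9%, 16.5% to 21.5%), against 2.21% over all control peaks: 172 held 2, 12 held 3 and 1 held 4. The share with 2 or more rose with control width, from 6.43% at 1500 to under 2000 bp to 15.4%, 26.5% and 41.7% at 2000 to under 2500, 2500 to under 3000 and 3000 bp or more. Narrow peaks have little room for 2 treated peaks, and the share was 0% under 500 bp and 0.189% at 500 to under 1000 bp. Width chose the domains, so their higher share is partly set by that rule, and how far was not tested.

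The members were picked as wide in the control list, and the part of that choice in the lower treated widths was not tested. The same rule was also applied in the other direction. All 369 treated peaks of 2000 bp or more had an overlapping control peak, although 16.4% of all treated peaks had none. Control peaks covered 91.3% of the bases of these 369, against 82.4% over all treated peaks. The widest control peak there was 2000 bp or wider at 279 of 369 (75.6%, exact 95% binomial interval 70.9% to 79.9%), against 5.38% over all treated peaks. The median ratio of control to treated width was 1.02, and 33 wide treated peaks (8.94%) held 2 or more control peaks, against 0.953% over all treated peaks. Over all treated peaks with an overlap the median ratio of control to treated width was 1.14, so it was lower at the wide treated peaks than over the whole list. Over all control peaks with an overlap the median ratio of treated to control width was 0.887, against 0.744 at the domains. Control was the wider at 205 wide treated peaks (55.6%), against 61.5% over all treated peaks. Control peaks covered 112 (30.4%) wholly, against 37.8%, and had the higher fold enrichment at 135 (36.6%), against 42.4% over all treated peaks with an overlap. Only 90 wide treated peaks had no wide control peak, and the control peaks there had a median width of 1679 bp.

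At 279 loci both lists held a peak of 2000 bp or more. Control was the wider at 205 of them (73.5%) and treated at 74 (26.5%), with a median width of 2360 bp in the control and 2237 bp in the treated list. The median difference, treated minus control, was -104 bp. Across the 970 domains with a treated peak, control and treated width had a rank correlation of 0.20, so the order of widths within this narrow range carried over only weakly.

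The lost bases lay mainly at the outer ends of the domains. Of 621495 domain bases without a treated peak, 510539 (82.1%) lay outside the outermost treated peaks, 96157 (15.5%) lay between treated peaks of the same domain and 14799 (2.38%) belonged to the 7 domains with none. At the 785 domains with a single treated peak, every uncovered base counts as outer by definition. The 82.1% is therefore largely set by how bases were classed. At 586 of 970 domains (60.4%) the treated peaks stopped short at both ends, at 356 (36.7%) at 1 end and at 28 (2.89%) at neither. The outer loss per domain had a median of 399.5 bp. Treated peaks also ran past an end at 379 domains (39.1%), by a median of 74 bp, and 18 domains (1.84%) were wholly covered, against 7.86% over all control peaks. For stopping short of an end and running past it, no share over all control peaks was worked out. These counts therefore do not set wide domains apart from other peaks.

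Loss was not tied to chromosome direction. The lower-coordinate end lost a mean of 255 bp and the higher-coordinate end 271 bp, with an SD over the 970 domains of 321 and 339 bp. From the control summit, the longer arm lost more bases at its outer edge than the shorter one at 540 domains (55.7%). It lost fewer there at 402 (41.4%). As a share of their length, however, shorter arms lost more at the outer edge, 28.3% against 19.7% of the summed length. Gaps between treated peaks were counted for neither arm.

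Seen from the summit, coverage by the treated list was lower on both sides. At the control summit 95.2% of domains were in a treated peak. At 500 bp on either side the domains were in a control peak at 87.1% and 89.4% and in a treated peak at 65.4% and 67.6%. At 1000 bp the values were 57.8% and 61.0% in the control list and 37.5% and 43.0% in the treated list, and at 1500 bp they were 26.4% and 29.8% against 15.05% and 16.3%. Around the summits of the 369 wide treated peaks the lists were closer and crossed. At 500 bp on either side 85.1% and 86.2% were in a treated peak and 81.0% and 81.3% in a control peak. At 1000 bp the values were 52.6% and 64.0% against 52.3% and 64.8%, and at 1500 bp 26.3% and 28.5% against 27.9% and 31.4%. Farther out control was the higher, at 2000 bp above the summit with 13.6% against 6.23% in a treated peak.

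**Figure D3:**
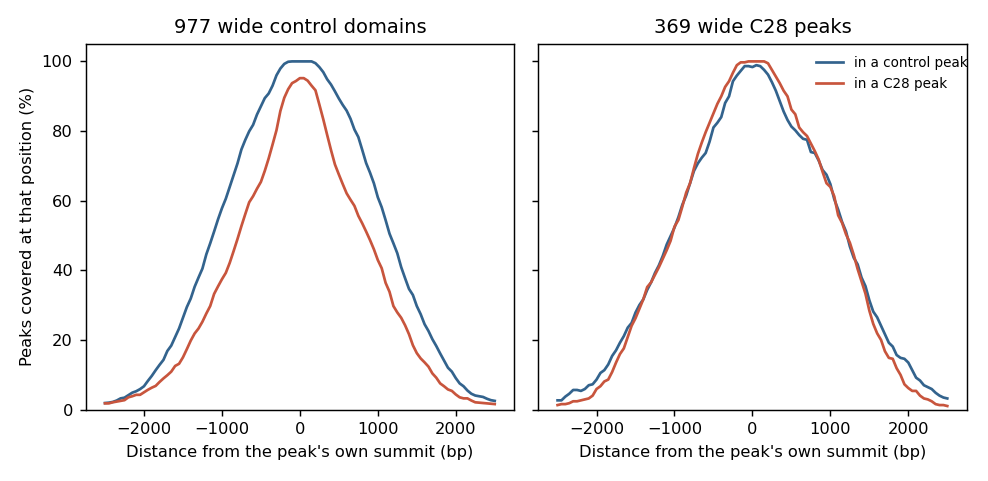
Percentage of peaks covered by a control peak (blue) or a C28 peak (red) at each distance in bp from the peak's own summit, for the 977 wide control domains (left) and the 369 wide C28 peaks (right). On the left the red line runs inside the blue one on both sides, and on the right the red line is higher near the summit (85.1% against 81.0% at 500 bp below it), the lines cross near 1000 bp and the blue line is higher farther out.

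The 15 widest domains show these forms one by one. The widest, chr1:155260418-155264345, was covered to 94.3% by a single treated peak of 3704 bp, which was also the widest peak of the treated list. The next, chr12:106256981-106260837, with a width of 3857 bp and a fold enrichment of 2.49, kept only 2 treated peaks of 643 and 312 bp, which covered 24.8% of it. The third, chr16:10781308-10785038, held 2 treated peaks of 2065 and 961 bp, and the fourth, chr4:140217982-140221706, held 2 of 1349 and 731 bp. Thus domains of nearly the same control width kept from a small part to almost all of it.

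Further down the same 15, chr15:63487386-63491083 held 1 treated peak of 2660 bp and chr2:166887899-166891592 held 1 of 2012 bp that began before the domain. At chr17:15126883-15130564, one of the stronger domains with a −log10 q of 206, treated peaks of 860 and 2382 bp covered 84.8%. At chr8:86724800-86728414 treated peaks of 2538 and 745 bp covered 90.0%. The domain chr5:115605500-115608927 was the one with 4 treated peaks, of 410, 833, 866 and 381 bp. Each of these 4 was shorter than 1000 bp, and together they covered 69.2% of a domain of 3428 bp.

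The last 6 were chr1:89855523-89858947, chr11:3188739-3192129, chr7:17366761-17370149, chr2:170043599-170046972, chr6:124424912-124428255 and chr4:133308317-133311647. At chr11:3188739-3192129 there were 3 treated peaks, of 430, 598 and 1315 bp, and at chr7:17366761-17370149 a treated peak of 3242 bp covered 95.04%. The other 4 were covered to between 52.1% at chr2:170043599-170046972 and 71.2% at chr1:89855523-89858947. Over the 15, 8 held 2 or more treated peaks, 7 held 1, and 9 held a treated peak of 2000 bp or more. None held a treated peak wider than itself.

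**Figure D4:**
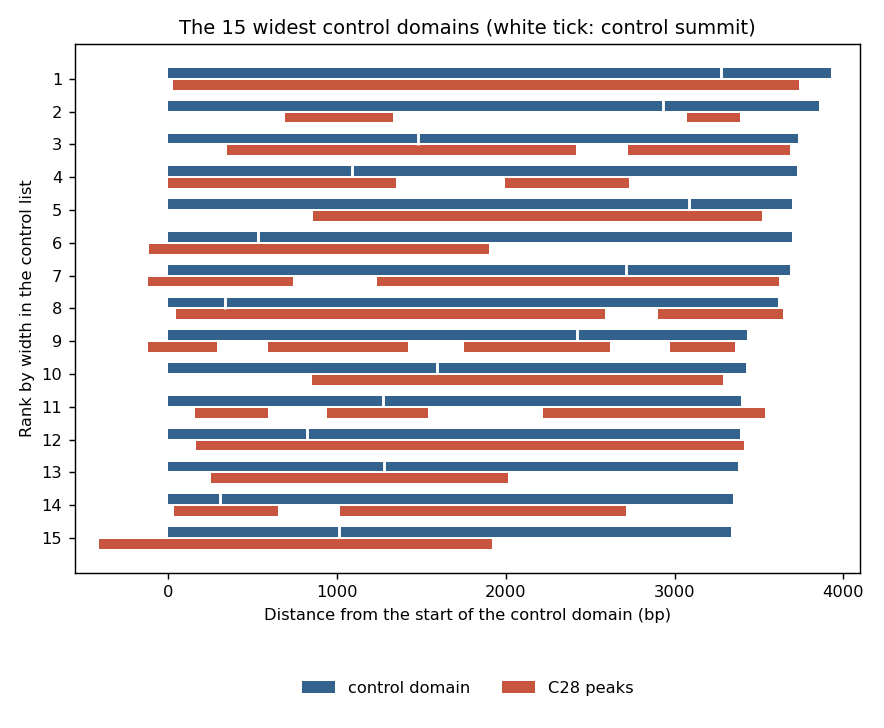
The 15 widest control domains, ordered by width, drawn from the start of each domain (x axis, bp): blue bars are the control domain with its summit as a white tick, red bars the C28 peaks that overlap it. Coverage runs from 24.8% for the domain ranked 2 to 95.04% for the one ranked 12, and 8 of the 15 hold 2 or more C28 peaks.

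Gaps inside divided domains were short. Over the 185 domains with 2 or more treated peaks, the bases between the outermost treated peaks that no treated peak held had a median of 385 bp, with the middle 50% between 333 and 614 bp. The smallest gap between neighbouring peaks was 319 bp in the whole control list and 288 bp in the treated list, and the narrowest peaks measured 318 and 287 bp. The treated list could thus be divided at gaps slightly shorter than any in the control list. Joining treated peaks 318 bp or less apart, to match the control list, left 14.9% of domains with 2 or more treated peaks in place of 18.9%, and joining those under 500 bp apart left 4.91%. The coverage of 72.9% became 73.5% and 75.2%. Joining under 500 bp thus removed most divisions, and joining at 318 bp or less left most of them. Joining fills only gaps between treated peaks, and gaps within a domain held 15.5% of the uncovered bases. The small change in coverage was therefore largely set in advance. Besides the domains already named, 3 treated peaks were found at chr5:58106395-58109642, chr17:39980124-39983263 and chr14:75577029-75580058, which were covered to between 61.4% and 72.6%.

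Height did not fall with width. The strongest treated peak at each of the 970 domains had a median fold enrichment of 5.63, against 4.95 for the same domains in the control list, and the median ratio was 1.12. Treated was higher at 722 (74.4%), against 59.4% over all control peaks with an overlap. Taking only the 785 domains with a single treated peak, it was higher at 597 (76.1%), with a median ratio of 1.12. At 50 domains (5.15%) it was at least 1.5 times the control value, against 6.15% over all control peaks with an overlap. Control and treated fold enrichment had a rank correlation of 0.78 across the domains, and the widths one of 0.20. The rule cut off control width at 2000 bp and did not cut off fold enrichment, so these correlations cannot be compared directly.

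**Figure D5:**
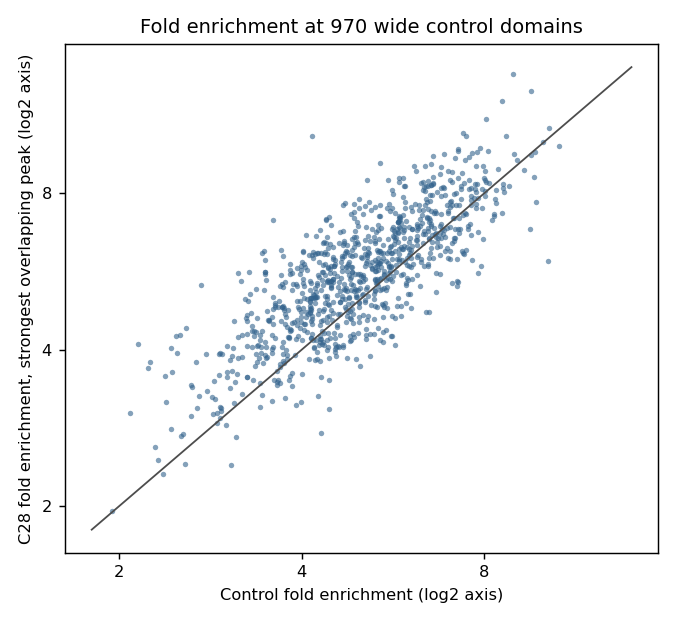
Authors' fold enrichment at the 970 wide control domains with an overlapping C28 peak, control (x axis) against the strongest overlapping C28 peak (y axis), both on log2 axes; the line marks equal values. The cloud follows the line and lies mostly above it, with 722 of 970 points higher in the C28 list.

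The −log10 q moved the opposite way. At the same 970 domains its median was 43.6 in the control list and 28.9 for the highest overlapping treated peak. It was lower in the treated list at 800 (82.5%), against 75.3% over all control peaks with an overlap, and the median ratio was 0.662. Higher folds with weaker q-values were therefore seen in the same regions. This pairing was not special to wide domains: over all control peaks with an overlap the median ratio was 1.05 for fold enrichment and 0.708 for −log10 q.

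Summits of the 2 lists lay farther apart in wide domains than in narrower peaks. The strongest treated summit lay a median of 109 bp from the control summit, and within 200 bp of it at 597 of 970 domains (61.5%), against 77.8% over all control peaks with an overlap. It lay over 1000 bp away at 90 (9.28%), against 1.41% over all control peaks with an overlap, a distance that few narrow peaks can hold. For control peaks of 1500 to under 2000 bp the shares were 72.1% and 2.17%. Where the treated list held a single peak this was so at 57 of 785 (7.26%). In these domains the highest point of the mark was at a different place in each library.

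Stronger domains kept more of their width. The 245 domains of lowest −log10 q, from 6.15 to 27.01, were covered to 60.4% by treated peaks, with a median width ratio of 0.577, and included all 7 without a treated peak. The 244 of highest −log10 q, from 70.1 to 244, were covered to 81.8%, with a median width ratio of 0.851. A treated peak of 2000 bp or more was present at 16.3% of the former and 38.1% of the latter. Division into 2 or more peaks was less graded, at 23.3% and 16.0%. The rank correlation of −log10 q with the covered share was 0.39 over the 977 domains, and that of fold enrichment with it was 0.29.

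At similar −log10 q, wide domains retained a smaller share of their width than narrower peaks. The groups were set by control width, which is also the divisor of the ratio. The part of that choice in the lower ratio was not tested. Between 27.01 and 69.9, the middle range of the domains, 489 domains were covered to 74.7%, with a median width ratio of 0.749 where a treated peak was present. Control peaks of 1500 to under 2000 bp in the same range (1120) were covered to 79.0% with a ratio of 0.850, and those of 1000 to under 1500 bp (2455) to 81.4% with 0.880. The fold enrichment fell over these widths, with medians of 4.90, 6.58 and 8.36, so peaks matched on −log10 q were not matched on height. All 3 groups were overlapped nearly completely, at 100%, 99.2% and 99.3%.

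The 7 domains without a treated peak were of low strength. Their −log10 q ranged from 7.80 to 20.2 and their fold enrichment from 2.93 to 5.03. They were chr3:145613346-145615348, chr16:33794571-33796691, chr12:32787229-32789489, chr3:95542972-95544990, chr2:156082719-156084738, chr9:26999216-27001556 and chr18:34188051-34190084. The last had the highest values, a fold enrichment of 5.03 and a −log10 q of 20.2 over 2034 bp. Next came 3 domains of which less than 14% was covered. A treated peak of 303 bp was left at chr4:137805731-137808212, one of 340 bp at chr8:13263753-13266459 and one of 333 bp at chr17:18751210-18753634. At the last of these the small treated peak had a higher fold enrichment than the domain, 4.96 against 3.26.

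A few domains were wider in the treated list. The largest gain was at chr15:97616155-97618274, a domain of 2120 bp inside a treated peak of 3413 bp, 1.61 times as wide, with a fold enrichment of 4.29 in the control and 4.13 in the treated list. At chr5:43624222-43626429 the width went from 2208 to 2964 bp, at chr5:135088142-135090808 from 2667 to 3408 bp, at chr18:60659918-60661921 from 2004 to 2665 bp and at chr10:17442324-17444329 from 2006 to 2650 bp. In all 5 the ratio of treated to control fold enrichment lay between 0.963 and 1.11, so width rose with little change in height.

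On each chromosome the treated list covered part of the domains' bases. Coverage of domain bases ran from 68.7% on chr8 to 78.6% on chr18. The median width ratio, with domains lacking a treated peak entered as 0, ran from 0.667 on chr8 to 0.843 on chr12. On chrX it was 0.835 over 19 domains. The share of domains with 2 or more treated peaks ranged more widely, from 7.41% on chr14 (2 of 27) to 30.0% on chr3 (15 of 50), with few domains behind each share.

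Values just inside and just outside the width minimum overlapped. The 5 narrowest domains, of 2000 to 2002 bp, had fold enrichments of 4.04 to 6.38 and were covered to between 28.7% and 99.4% by treated peaks. The 5 widest peaks left out, each within 2 bp of the minimum, had fold enrichments of 3.99 to 8.93 and were covered to between 46.3% and 92.7%.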

How the data were processed

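Per the labels' protocols, H3K27ac chromatin was immunoprecipitated with 1 antibody and sequenced. The submitters' processing notes name build mm9, Bowtie2 and Cufflinks 2.2.1 without saying what each was used for. The sources used here do not name the peak caller, its input control or its settings. Each deposited list, 1 per library, holds a score (10 times −log10 q, rounded down), the authors' fold enrichment ratio at the summit, −log10 p and −log10 q. The deposited RNA table holds a signal, gene reads divided by the authors' size factor; 100% of its values are whole multiples, within 0.01, of 1 read, and it served only for marker levels.

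Peaks were compared in Python 3.11.15 with pandas 2.3.3; 1 bp counted as overlap, and peaks within a list did not overlap. The code was tested on simulated peaks against bedtools 2.31.1. Intervals are exact binomial, at 95%, for counting error only. Domains named are the 15 widest, the 10 of highest fold, the 10 least covered, 5 with most treated peaks, 5 with the largest gain, and 5 on either side of the minimum. Members and lists were chosen with earlier results of these data known. The planned RNA test of genes at domains was not made, since no annotation of mm9 was used here. Alternatives covered the width minimum, a stricter q, the overlap rule, joining of close peaks and the reverse direction.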

Additional observations from a re-analysis of the deposited data

How the results depend on the processing

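A −log10 q of at least 5 in both lists moved none of the 5 values beyond its interval. With a width minimum of 1500 bp there were 3790 domains, of which 97.2% had a treated peak, 9.66% had 2 or more and 42.9% had one of at least 1500 bp. With 3000 bp there were 48, all (100%) with a treated peak, 67.7% of bases covered, 41.7% with 2 or more and 8.33% with one of at least 3000 bp. Requiring 50% coverage left 86.6% shared, and requiring the summit left 95.2%. With treated peaks under 500 bp apart joined, 4.91% of domains held 2 or more and 36.95% one of 2000 bp or wider. Chosen after seeing the data, joining in both lists gave 7.01% and 35.1%, and joining treated peaks at 318 bp or less gave 14.9% with 2 or more. In the other direction (wide treated peaks against the control list) the 4 shares were 100%, 91.3%, 8.94% and 75.6%. Beyond what the construction of each alternative sets, the cause was not tested. No paired analysis was possible because each H3K27ac condition has 1 library and no RNA test was made; the planned RNA alternatives were not run.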

Other observations

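With an equal number of peaks taken from each list, the 977 widest treated peaks reached down to 1713 bp, and 489 of the 977 wide control domains (50.1%) touched one of them. After joining peaks under 500 bp apart in each list, 1298 control and 579 treated stretches measured 2000 bp or more, and the widest were 4304 and 3845 bp.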
